A study of Mus musculus with 15 samples.

Results

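The genes described here carry symbols of nuclear-encoded subunits of respiratory complexes II to V. They were measured by bulk RNA sequencing of mouse tissue labelled cerebellum. They were chosen by symbol: the Uqcr genes except Uqcrfs1, the Cox4 to Cox8 families and the Atp5 genes, joined by Sdha, Sdhc, Sdhd, Cyc1 and Cycs. Sdhb was not among the genes named, so the list does not cover complexes II and III in full. Of 57 symbols that matched, Uqcrfs1 was left out by name, 7 were pseudogene symbols and 2 stayed under 10 counts in every library, among them Cox8c. The remaining 47 members, of 55488 rows in the deposited table of genes, comprised 3 genes of complex II, 8 of complex III, cytochrome c, 18 of complex IV and 17 of complex V. Complexes were assigned by symbol alone, so a member need not be a subunit. Atp5s, for one, stands under the symbol Dmac2l in the RefSeq set used below for promoters. All 47 passed the filter on low counts that left 24990 genes for testing.

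Complex II passes electrons from succinate to ubiquinone, complex III passes them on to cytochrome c, and complex IV hands them to oxygen. Complexes III and IV pump protons across the inner mitochondrial membrane, and complex V, the ATP synthase, uses the gradient to make ATP. Nuclear genes supply most subunits of complexes III to V and all of complex II, and several subunits of complex IV exist as tissue-specific isoforms. Neurons of the cerebellum depend heavily on this pathway.

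The study asked what transplanted blood stem cells do to the cerebellum of the YG8JR mouse. This strain models Friedreich ataxia, an inherited disease of mitochondrial iron-sulfur cluster supply. The mPPL-001 group (n = 5) had YG8JR genotype and received Sca1+ stem and progenitor cells from YG8JR bone marrow, electroporated with Cas9 and the guide RNAs UP4 and DN4. The mock group (n = 4) received YG8JR cells electroporated with the same guides and no Cas9. Recipients of both groups were 2.5 to 3.0 months old, were irradiated with 7 Gy, received 1500000 to 1750000 cells through the tail vein and drank antibiotic water for 1 month. Untreated YG8JR mice (n = 3) and wild-type mice (WT, n = 3) had no transplant, so the transplanted groups differ from both by irradiation and antibiotics as well as by cells. All libraries carry the time label 6 months after transplant. The labels name 2 batches, A (8 libraries) and B (7 libraries), without saying what a batch was, and each group had libraries in both. Separate animals are not stated outright in the labels, and p-values then reflect only how these libraries vary.

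Library totals ran from 16847875 to 38760543 counts. Levels are given in CPM, counts scaled to a common library total after TMM normalization. The labelled tissue was checked with its markers. The granule neuron gene Gabra6 lay between 206 and 504 CPM in batch B but between 0.0586 and 71.9 CPM in batch A. After the highest batch A library, mPPL-001 replicate 3, came WT replicate 3 at 12.4 CPM. The Purkinje cell gene Pcp2 was 21.2 to 71.0 CPM in batch B and 0.193 to 24.4 CPM in batch A. Brainstem and deep nuclear neuron markers were higher in most batch A libraries. Slc6a5 was 43.2 to 889 CPM in batch A and 24.8 to 96.7 CPM in batch B. Chat was 6.95 to 32.9 CPM against 0 to 4.03 CPM. Gabra6 and Pcp2 transcripts were thus scarce in most batch A libraries, though these carry the same tissue label. The tissue makeup of the libraries was not tested further. The smallest library, WT replicate 2, stood apart. Members took 0.247% of its counts and 0.441% to 0.573% in the other 14 libraries. A second library carries a doubt: the library labelled WT replicate 3 was set against the batch A YG8JR libraries over 6852 genes that differed between WT and YG8JR in batch B, where WT replicate 2 is 1 of 2 WT libraries. On a scale where 0 is like YG8JR and 1 like WT of batch B, it scored 0.13. This was inside the range of the 7 YG8JR libraries of its batch, -0.342 to 0.386, the highest being mPPL-001 replicate 1. Because WT replicate 2 stood apart and helped to set this scale, the score cannot decide whether the label is right. For the 6 mitochondrially encoded genes of complexes III to V, by contrast, the library labelled WT replicate 3 had a median of -0.89 on the log2 deviation scale explained next. That is under every YG8JR-genotype library (lowest -0.24). Not all such genes were low in it. Mitochondrially encoded genes together took 3.26% of its counts, inside the 2.88% to 5.59% of the YG8JR-genotype libraries. Its mt-Co1 level, 15480 CPM, was inside their 13582 to 23061 CPM. The name of this library begins with FJ and those of the other 14 with FA, and what the letters stand for is not known here. Medians and calls against WT are therefore given with and without WT replicate 2 and the library labelled WT replicate 3.

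The members' summary level lay in a narrow range in 14 libraries, and WT replicate 2 was far below it. For each gene, log2 CPM was set against that gene's mean over the 15 libraries, and the median of these deviations over the members was taken for each library. The medians were -0.08, -1.07 and -0.01 in WT replicates 1 to 3, and 0.12, 0.29 and 0.00 in untreated YG8JR. After mock transplant they were 0.06, 0.03, 0.29 and 0.32, and after mPPL-001 they were -0.20, 0.20, 0.03, -0.18 and 0.21. WT replicates 1 and 3 thus lay within the range of the YG8JR-genotype libraries, and WT replicate 2 lay far under it. In WT replicate 2, 41 of 47 members had their lowest level of all libraries, and the median member stood at 0.435 of its median level in the other 14 libraries.

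**Figure D1:**
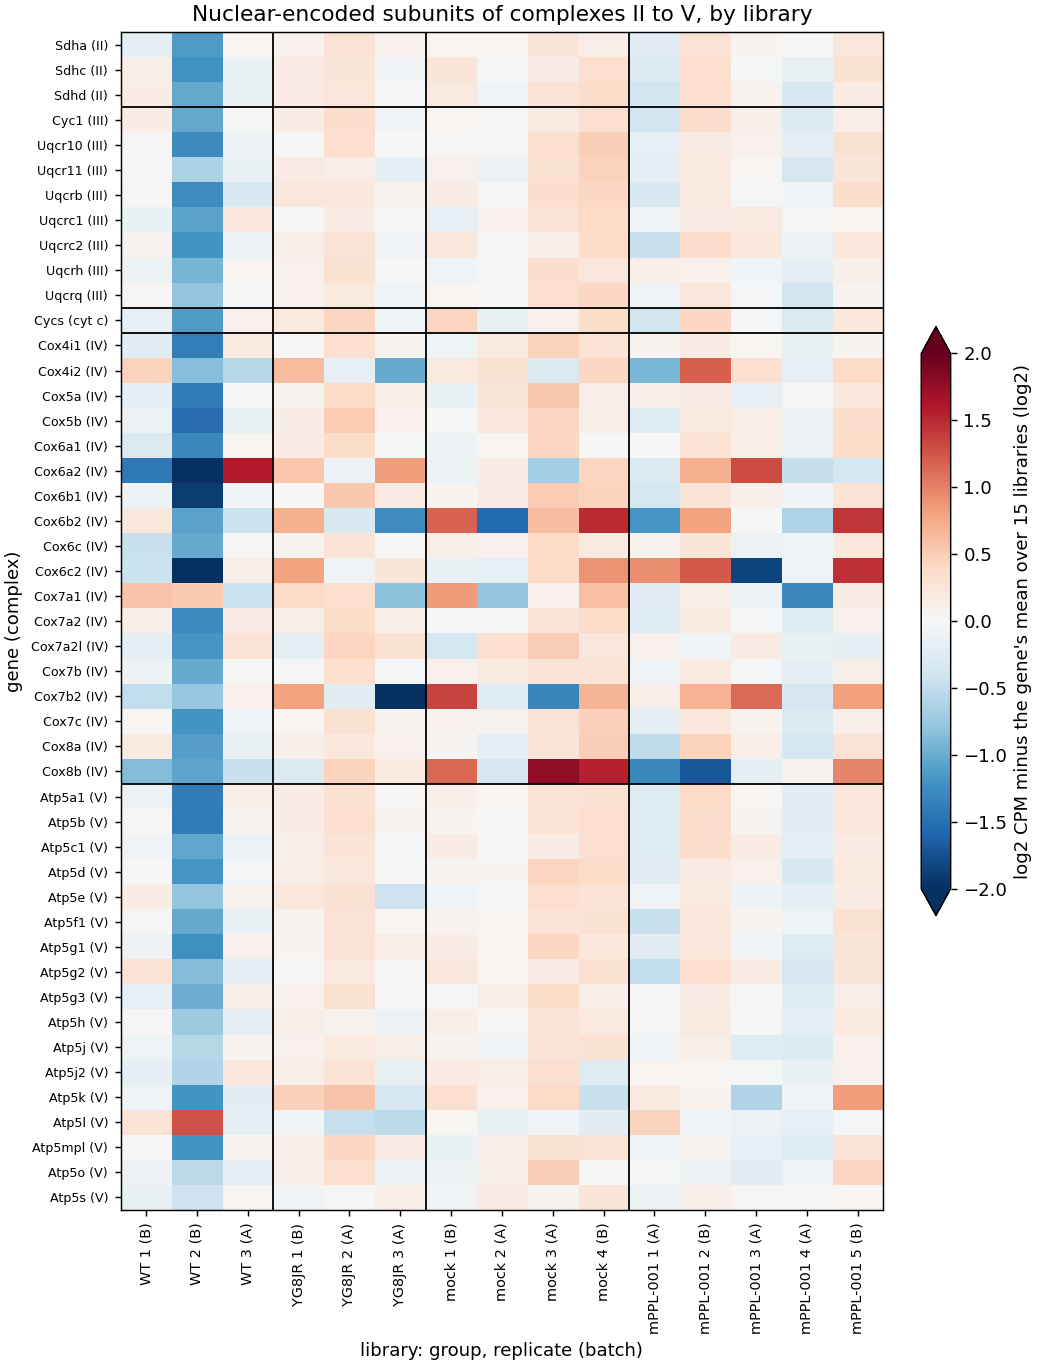
Deviation of each member (rows, grouped by complex) from its own mean over 15 libraries, in log2 CPM, for each library (columns, by group with replicate number and batch). The column of WT replicate 2 is low for nearly all members, Atp5l and Cox7a1 excepted, and the low-level members of complex IV vary most between libraries.

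Other gene lists were also low in that library. In WT replicate 2 the median deviation was -0.96 over 30 nuclear genes of complex I, -0.93 over 86 cytosolic ribosomal protein genes, -0.94 over the citric acid cycle and -1.27 over the 6 mitochondrially encoded genes of complexes III to V. Genes for assembly factors of complexes II to V stood at -0.45 and regulators of mitochondrial biogenesis at 0.17 there. Nuclear long noncoding RNAs stood at 0.59, a value that mPPL-001 replicate 1 exceeded at 0.94. Whether depth, RNA quality or cell makeup had a part in the low member levels of this library was not tested. In bulk tissue, fewer cells of a type and less RNA per cell cannot be told apart.

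**Figure D2:**
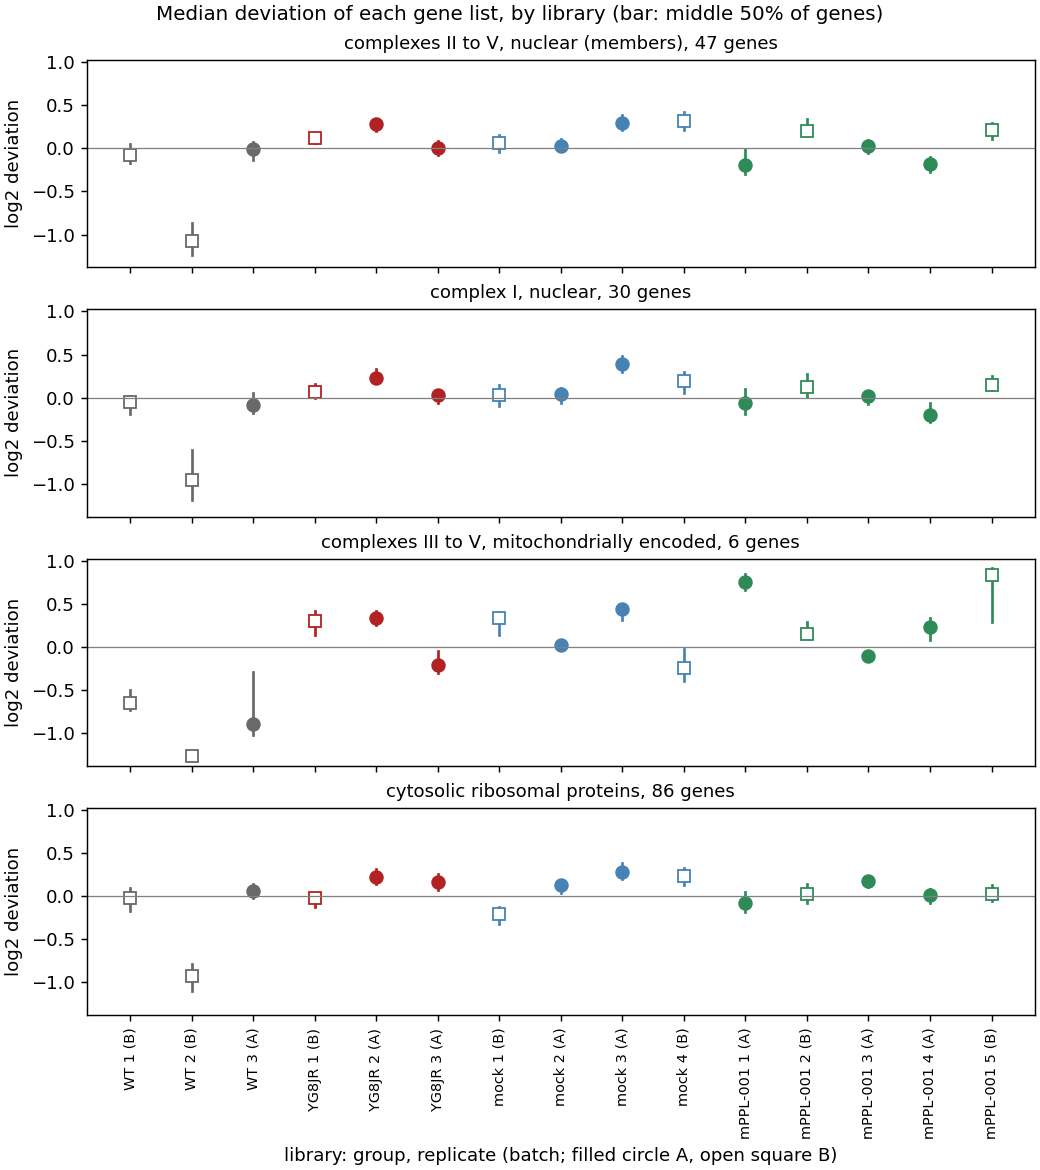
Median log2 deviation of 4 gene lists in each library, with bars for the middle 50% of genes; filled circles are batch A and open squares batch B. WT replicate 2 is lowest for the members (-1.07), for nuclear complex I (-0.96) and for ribosomal proteins (-0.93). The median over the mitochondrially encoded genes of complexes III to V is also low in the other WT libraries.

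Levels of the members spanned a wide range. Per kilobase of annotated exons, averaged over all libraries, the highest were Atp5a1 (237 CPM per kb) and Atp5b (232 CPM per kb), the alpha and beta subunits that form the catalytic head of the ATP synthase. Next were the complex IV genes Cox8a (188), Cox6b1 (153) and Cox4i1 (130.3 CPM per kb). Sdha, the flavoprotein that oxidizes succinate, stood at 91.0 CPM per kb, and Cycs, the mobile electron carrier, at 18.4 CPM per kb. Of the 3 genes that encode the identical mature subunit c of the ATP synthase rotor, Atp5g3 was highest at 54.4 CPM per kb, with Atp5g1 at 16.7 and Atp5g2 at 15.4 CPM per kb. Exon lengths come from an annotation of another genome build and include transcripts that carry no coding sequence, so these levels are approximate.

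Complex IV isoforms separated into a high and a low member in each of 6 pairs. Per kilobase, the broadly expressed isoform exceeded its partner by 17 times for Cox7a2 over Cox7a1, whose products are the liver-type and heart or muscle type of 1 subunit. The ratio was 61.2 for Cox6a1 over the muscle type Cox6a2, and 70.8 for Cox6b1 over the testis type Cox6b2. It was 78.8 for Cox4i1 over Cox4i2, the lung and hypoxia isoform, 85 for Cox7b over the testis type Cox7b2, and 159 for Cox8a over Cox8b, the heart and brown fat type of the mouse. These 6 low partners and Cox6c2 make up a set of 7 low-level members that was formed after their values were seen. In the annotation Cox6c2 has 231 exon bases and 0 of them lie in a coding transcript, so its place as an isoform is uncertain. Their counts ran from 0 to 189 in a library, against 65 to 43635 for the other 40 members. Outside WT replicate 2, the coefficient of variation between libraries had a median of 13.6% over the 40 members and 56.8% over the 7.

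The promoters of broadly expressed members and of low-level isoforms were set side by side as sequence background to their levels. RefSeq windows (250 bases before to 50 after the start of a gene, build GRCm38.p6) were found for 35 of 47 members. The motif TGCGCANGC of NRF1, a factor known to drive respiratory chain genes, was present on either strand in 6 of 35 windows (17.1%) and in 4.33% of all 27025 windows. The motif CCGGAAG of ETS factors, the family of the nuclear respiratory factor GABP, was in 10 (28.6%, against 9.12% of all). The YY1 motif AAGATGGC was in 2 (5.71%, against 2.88%), and the nuclear receptor motif AAGGTCA, bound by the estrogen-related receptor, was in 5 (14.3%, against 4.66%). None of these motifs was found in the 4 windows of low-level isoforms, and no search was made for other spellings. With shares of 2.88% to 9.12% over all windows, 4 windows are too few to show a difference. CpG pairs had a median of 20 in a window for the 31 other members, 8.5 for the 4 low-level isoforms and 7 over all windows. These counts are descriptions, and a match is not a bound site.

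Below are the 150 bases before the start of 4 members, on the strand of the gene, with matches to the 4 motifs in capitals. Sdha, at chr13:74350241-74350390 on the minus strand, is shown for its pair of NRF1 matches. Cox6b1, at chr7:30626115-30626264 on the minus strand, and Cox6b2, at chr7:4753095-4753244 on the minus strand, are a broad isoform and its low-level partner. Atp5l, at chr9:44920743-44920892 on the minus strand, is the member highest in WT replicate 2, described further on. Within these 150 bases Cox6b1 has 1 ETS match read on the opposite strand and Cox6b2 has none. Atp5l has 1 nuclear receptor match there, read on the opposite strand. In its whole window Atp5l also has 1 NRF1 match and 2 ETS matches.
Sdha: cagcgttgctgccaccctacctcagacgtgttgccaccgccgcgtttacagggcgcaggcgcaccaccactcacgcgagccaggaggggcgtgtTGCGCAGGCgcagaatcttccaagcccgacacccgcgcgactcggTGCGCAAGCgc
Cox6b1: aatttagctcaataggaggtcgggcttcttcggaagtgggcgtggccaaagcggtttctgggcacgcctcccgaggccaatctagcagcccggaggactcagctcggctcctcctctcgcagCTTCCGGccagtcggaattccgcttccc
Cox6b2: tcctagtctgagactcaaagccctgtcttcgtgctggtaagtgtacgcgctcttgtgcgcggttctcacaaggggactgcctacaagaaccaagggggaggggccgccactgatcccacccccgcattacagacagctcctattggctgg
Atp5l: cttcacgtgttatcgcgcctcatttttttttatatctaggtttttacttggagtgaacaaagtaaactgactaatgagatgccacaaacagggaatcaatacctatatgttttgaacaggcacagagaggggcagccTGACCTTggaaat

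Untreated YG8JR against WT compares the disease genotype with wild type in tissue labelled cerebellum. Batch A, where Gabra6 was low, held 2 of the 3 untreated YG8JR libraries and 1 of the 3 WT libraries. No member was called by edgeR's quasi-likelihood test, in which genes with an adjusted p under 0.05 are called, with 0.144% of all genes called. The fold changes nevertheless leaned to one side: 46 of 47 members had a positive log2 fold change, with a median of 0.43 against -0.04 over all genes tested. At an unadjusted p under 0.05 there were 7 of 47 members, against 25.3% of all genes. DESeq2 called 0 members and 8.88% of all genes, and voom with sample weights called 0 members and 3.63% of all genes, with a member median of 0.23. The size of the lean depended on the WT libraries used: the median was 0.21 without WT replicate 2, where edgeR called 0 members and 0.144% of all genes. It was 0.71 when the library labelled WT replicate 3 was left out instead. Within batch A, which has only that 1 WT library, the median was 0.15, and within batch B it was 0.59.

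The 3 complex II members had similar fold changes in this comparison. Sdha was 322, 167 and 377 CPM in WT, 389.7, 447 and 392 CPM in untreated YG8JR, 377, 378, 433 and 403 CPM after mock transplant and 318, 449.6, 383, 369.7 and 428 CPM after mPPL-001. The 3 untreated YG8JR libraries lay above the 3 WT libraries, the nearest WT library being the one labelled replicate 3. Means were 289 ± 109 CPM (SD, n = 3) in WT and 409 ± 32.4 CPM (SD, n = 3) in untreated YG8JR. Sdha had a log2 fold change of 0.49 (SE 0.23, edgeR adjusted p = 0.206), and 0.28 without WT replicate 2. Sdhc and Sdhd, the membrane anchors, had 0.48 and 0.43.

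All 8 complex III members were positive, from 0.24 for Uqcrc1 to 0.63 for Uqcrb, and 0 were called. Uqcrc1, a core protein of the matrix side, was 187, 97.6 and 236 CPM in WT, 199, 227 and 204 CPM in untreated YG8JR, 183, 217, 250.3 and 269 CPM after mock transplant and 195, 228, 232, 198 and 211 CPM after mPPL-001. Its groups overlapped, since the library labelled WT replicate 3 was higher than all untreated YG8JR libraries. Uqcrc1 had a log2 fold change of 0.24 (SE 0.24, edgeR adjusted p = 0.512), 0.03 without WT replicate 2 and -0.13 within batch A. Cyc1, the cytochrome c1 heme protein, was 95.4, 42.5 and 86.0 CPM in WT, 95.4, 110.1 and 83.3 CPM in untreated YG8JR, 88.9, 84.5, 97.8 and 108 CPM after mock transplant and 65.9, 109.6, 92.1, 71.0 and 94.7 CPM after mPPL-001. WT replicate 1 stood level with untreated YG8JR replicate 1 and the groups overlapped, with a log2 fold change of 0.40 (SE 0.26, edgeR adjusted p = 0.323). Uqcrb, a small subunit that binds ubiquinone, was 33.1, 13.6 and 26.2 CPM in WT, 38.1, 37.4 and 34.2 CPM in untreated YG8JR, 36.2, 31.9, 41.4 and 43.4 CPM after mock transplant and 26.3, 37.0, 31.6, 31.1 and 41.6 CPM after mPPL-001. Every untreated YG8JR library exceeded every WT library here, by a small margin over WT replicate 1. Its log2 fold change was 0.63 (SE 0.25, edgeR adjusted p = 0.155), and 0.40 without WT replicate 2.

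Cycs, cytochrome c, was 53.9, 27.7 and 64.0 CPM in WT, 69.6, 81.9 and 57.0 CPM in untreated YG8JR, 81.7, 54.3, 64.6 and 77.9 CPM after mock transplant and 47.0, 80.2, 58.6, 50.2 and 69.8 CPM after mPPL-001. Untreated YG8JR replicate 3 lay between the WT libraries, so the groups overlapped. The log2 fold change was 0.55 (SE 0.27, edgeR adjusted p = 0.216), and it was 1.04 (edgeR adjusted p = 0.0287) without the library labelled WT replicate 3.

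All 18 complex IV members had positive values, with a median of 0.44. Cox4i1, a regulatory subunit, was 169.8, 74.8 and 225 CPM in WT, 195, 246 and 203 CPM in untreated YG8JR, 184, 225, 270.1 and 235 CPM after mock transplant and 205, 217, 202, 176 and 204 CPM after mPPL-001. The highest WT library exceeded untreated YG8JR replicates 1 and 3. Its log2 fold change was 0.40 (SE 0.27, edgeR adjusted p = 0.329). Cox5a, another regulatory subunit, was 41.6, 18.0 and 47.5 CPM in WT, 50.0, 61.9 and 51.7 CPM in untreated YG8JR, 43.5, 56.1, 69.3 and 51.8 CPM after mock transplant and 51.1, 53.5, 42.5, 46.7 and 55.2 CPM after mPPL-001. Its untreated YG8JR libraries were all above WT, and the log2 fold change was 0.56 (SE 0.26, edgeR adjusted p = 0.197). Cox6c, a small subunit, had the second smallest p of the members in this comparison and was 63.7, 43.4 and 88.2 CPM in WT, 91.6, 104 and 87.5 CPM in untreated YG8JR, 94.7, 92.2, 113 and 100.02 CPM after mock transplant and 91.6, 103, 80.0, 82.3 and 101 CPM after mPPL-001. WT replicates 1 and 2 were the lowest of all 15 libraries, whereas the library labelled WT replicate 3 lay above untreated YG8JR replicate 3. Cox6c had a log2 fold change of 0.52 (SE 0.20, edgeR adjusted p = 0.154), 0.36 without WT replicate 2. Leaving out the library labelled WT replicate 3 gave 0.88 (edgeR adjusted p = 0.0166). Cox6b1, the subunit that faces cytochrome c, had the lowest level in WT replicate 2, relative to its other libraries, of the 40 broadly expressed members, 27.6 CPM against 80.0 to 148 CPM elsewhere.

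Of 17 complex V members 16 had positive values. Atp5a1 was 664, 273 and 778 CPM in WT, 799, 882 and 731 CPM in untreated YG8JR, 769, 742, 872 and 889 CPM after mock transplant and 601, 933, 736, 623 and 843 CPM after mPPL-001. The library labelled WT replicate 3 lay inside the untreated YG8JR range, and the log2 fold change was 0.50 (SE 0.30, edgeR adjusted p = 0.289). Atp5b was 964, 359.6 and 985 CPM in WT, 1056, 1193 and 996 CPM in untreated YG8JR, 993, 946, 1149 and 1204 CPM after mock transplant and 797, 1215, 987, 815 and 1114 CPM after mPPL-001. Every untreated YG8JR library of Atp5b was above WT, the library labelled WT replicate 3 being the nearest. Atp5b had a log2 fold change of 0.50 (SE 0.30, edgeR adjusted p = 0.293), and 0.23 without WT replicate 2. Subunit c genes had 0.46 for Atp5g1, 0.30 for Atp5g2 and 0.37 for Atp5g3. Atpif1, the inhibitory factor of the synthase and not a member by symbol, was 17.5, 10.3 and 19.0 CPM in WT, 20.7, 27.8 and 24.1 CPM in untreated YG8JR, 20.7, 25.0, 30.3 and 24.7 CPM after mock transplant and 21.1, 22.7, 20.5, 23.0 and 25.5 CPM after mPPL-001. All 3 WT libraries of Atpif1 lay below all 12 other libraries. The gap was small, 19.0 CPM in the library labelled WT replicate 3 against 20.5 CPM in mPPL-001 replicate 3. The share of all genes with this pattern was not counted, and no test of Atpif1 is given.

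Atp5l, subunit g of the membrane part, was the 1 member with a negative value and had the smallest p of the members. It was 24.5, 48.9 and 17.8 CPM in WT, 19.6, 14.7 and 14.1 CPM in untreated YG8JR, 21.0, 18.3, 19.5 and 17.3 CPM after mock transplant and 27.6, 19.4, 18.7, 18.2 and 20.02 CPM after mPPL-001. WT replicate 2 was far above every other library, mPPL-001 replicate 1 came next, and the remaining libraries overlapped. The log2 fold change was -0.82 (SE 0.29, edgeR adjusted p = 0.138), -0.32 without WT replicate 2. Leaving out the library labelled WT replicate 3 gave -1.14 (edgeR adjusted p = 0.0216). In the annotation 91.6% of its 6443 exon bases lie outside coding transcripts, against a median of 26.6% over members. Of the 31-base words of its coding transcripts 85.4% also occur in other genes, with the predicted gene Gm10221 sharing the most. The authors' handling of reads with several matches is not known, so the level of Atp5l is uncertain, and its part in the high value was not tested. The same holds to a lesser degree for Atp5o and Uqcrb, with 59.5% and 58.2% of words shared.

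**Figure D3:**
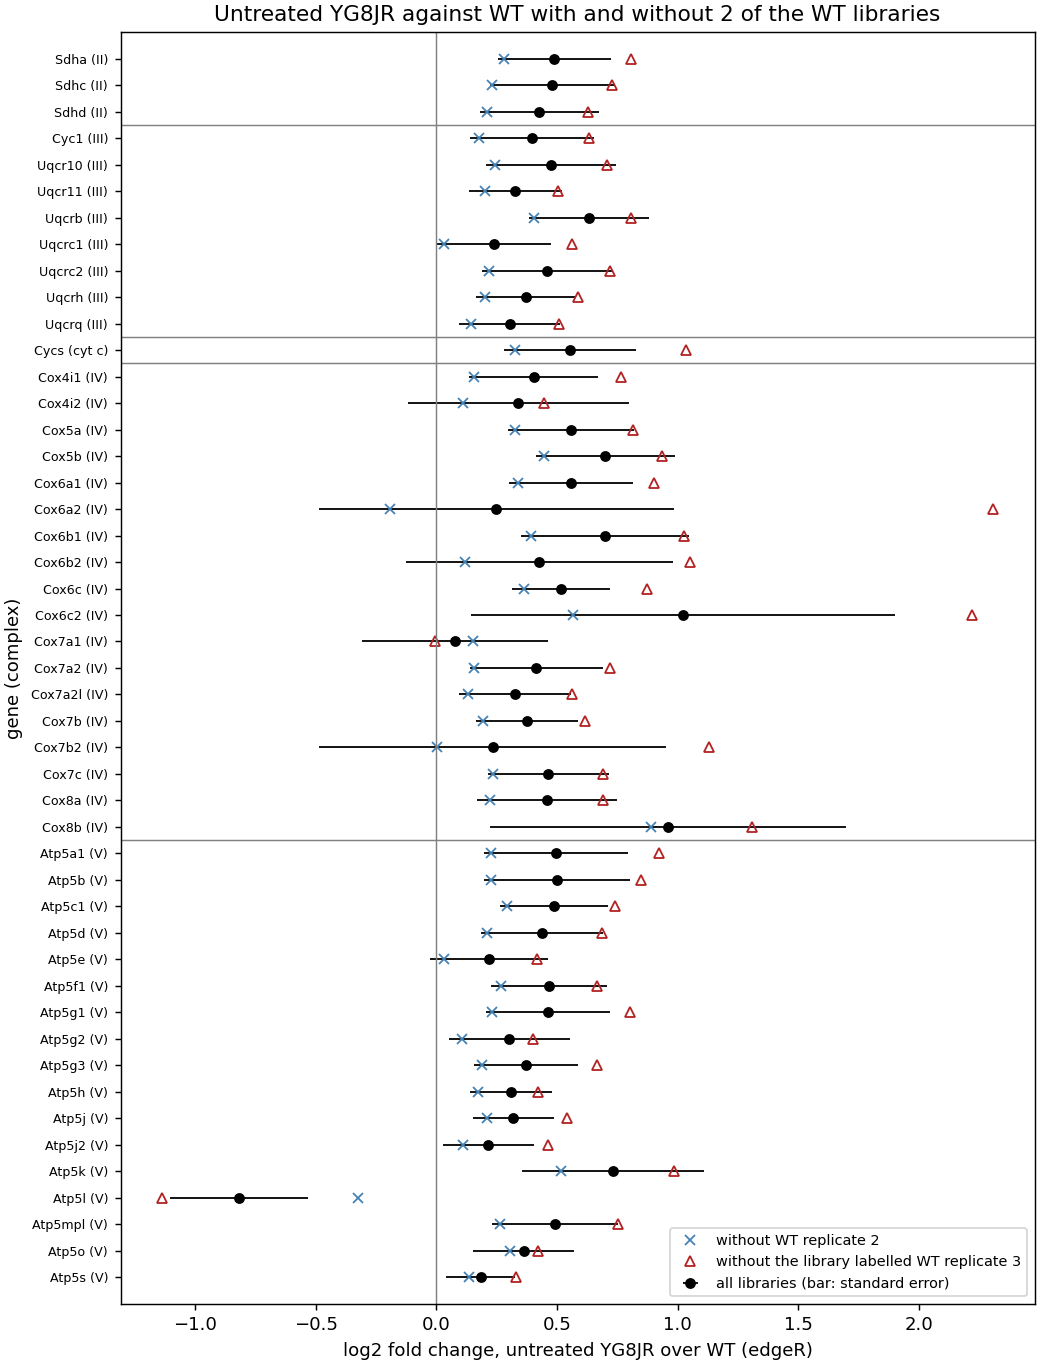
Log2 fold change of each member in untreated YG8JR over WT (edgeR) with all libraries (black, bars are standard errors), after removal of WT replicate 2 (blue crosses) and after removal of the library labelled WT replicate 3 (red triangles). With all libraries 46 of 47 values are positive; crosses lie nearer to 0 (median 0.21) and triangles farther (median 0.71), and Atp5l is negative in all 3.

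In 13 of 47 members every untreated YG8JR library lay above every WT library, and in 0 every one lay below. Over all genes tested, 8.17% showed the higher pattern. The share with the lower pattern was not counted, so no reading is drawn from the 0. The 13 were Sdha, Uqcrb, Cox5a, Cox5b, Cox6b1, Cox7c, Cox8b, Atp5b, Atp5c1, Atp5d, Atp5f1, Atp5j and Atp5mpl, and most gaps to the highest WT library were small. The widest relative to level, outside the low-level members, was in Cox5b, 74.3 CPM in the lowest untreated YG8JR library against 64.4 CPM in the highest WT library. Without the library labelled WT replicate 3, edgeR called 5 members higher (Sdha, Cycs, Cox6a1, Cox6a2 and Cox6c) and Atp5l lower. That setting called 15.8% of all genes, and 6 of 47 members is near that share. When WT replicate 1 alone stood for wild type, a setting chosen after seeing the data, 0 members and 0.539% of all genes were called and the median was 0.28.

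Both transplanted groups were also set against WT, with the same WT libraries as above. For mock against WT the median was 0.49, 45 of 47 values were positive and 0 members were called by edgeR, with 0.412% of all genes called. There were 17 of 47 members with an unadjusted p under 0.05, against 26.1% of all genes. DESeq2 and voom each called Cox6c alone among the members, where they called 10.6% and 5.49% of all genes, and the voom median was 0.30. Cox6c had a log2 fold change of 0.61 (SE 0.19, edgeR adjusted p = 0.103) in edgeR, with every mock library above every WT library. Uqcrb had 0.67 (SE 0.23, edgeR adjusted p = 0.122). Every mock library exceeded every WT library in 12 members, and 5.88% of all genes showed that pattern. Without WT replicate 2 the median was 0.23, and 0 members and 0.233% of all genes were called.

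Without the library labelled WT replicate 3, 11 members were called higher and Atp5l lower in mock against WT, where 18.6% of all genes were called, and the median was 0.73. The 11 spanned the chain: Sdha, Cycs, the complex IV genes Cox4i1, Cox6a1, Cox6c and Cox7b, and the synthase genes Atp5a1, Atp5c1, Atp5g1, Atp5g3 and Atp5j. Among them Cox6c had 0.95 (edgeR adjusted p = 0.0082) and Cycs 0.95 (edgeR adjusted p = 0.026). For mPPL-001 against WT the median with all libraries was 0.32 with 45 positive values, and 0 members were called by edgeR, with 0.232% of all genes called. An unadjusted p under 0.05 was found for 3 of 47 members and 15.8% of all genes. DESeq2 called 0 members and 2.63% of all genes, and voom 0 members and 0.8% of all genes, with a voom median of 0.16. The smallest p belonged to Cox6c, 0.48 (SE 0.18, edgeR adjusted p = 0.255), then Cox6a1, 0.54 (SE 0.23, edgeR adjusted p = 0.289), and Uqcrb, 0.49 (SE 0.22, edgeR adjusted p = 0.31). Without WT replicate 2 the median was 0.05, with 0 members and 0.113% of all genes called, and within batch A it was -0.07 against 0.71 within batch B. Without the library labelled WT replicate 3, the median was 0.58, 6.93% of all genes were called and Cox6c was the 1 member called, at 0.82 (edgeR adjusted p = 0.0211).

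Edited against mock transplant compares the transplants with and without Cas9. No member was called by edgeR, DESeq2 or voom, and each of these tools called 0% of all genes. The median was -0.13 against 0.04 over all genes, with 40 of 47 values negative. An unadjusted p under 0.05 was found for 1 member and 2.14% of all genes. Fold changes of the broadly expressed members were small: among the 40 they ran from -0.25 for Cox7a2l to 0.16 for Atp5l. Sdha had -0.03 (SE 0.19, edgeR adjusted p = 0.999), Cycs -0.17 (SE 0.22, edgeR adjusted p = 0.999) and Atp5b -0.12 (SE 0.25, edgeR adjusted p = 0.999). Cox7a2l, which joins complexes III and IV in supercomplexes, had -0.25 (SE 0.19, edgeR adjusted p = 0.999), and Atp5j, coupling factor 6 of the synthase stalk, -0.22 (SE 0.14, edgeR adjusted p = 0.999). The 2 groups overlapped in every member. The share of all genes with such overlap was not counted, so this is not read as a result about the members. The median was -0.30 within batch A and 0.03 within batch B. The difference between batches was tested as an interaction, which called 0 genes and 0 members (smallest edgeR adjusted p of a member = 0.982), with 0 members at an unadjusted p under 0.05.

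Cox8b had the largest difference between the transplants. It was 0.175, 0.151 and 0.240 CPM in WT, 0.269, 0.465 and 0.381 CPM in untreated YG8JR, 0.752, 0.258, 1.17 and 1.00 CPM after mock transplant and 0.125, 0.0912, 0.291, 0.344 and 0.667 CPM after mPPL-001, which rests on 3 to 36 counts in a library. Mock replicates 1, 3 and 4 and mPPL-001 replicate 5 were the 4 highest of all libraries. mPPL-001 over mock gave a log2 fold change of -1.38 (SE 0.56, edgeR adjusted p = 0.999). The same 4 libraries held the most choroid plexus transcripts. The summed level of the choroid plexus marker list was 5179 to 8111 CPM in them and 221 to 1605 CPM in the other 11, and Ttr, the main choroid plexus transcript, was 2618 to 4246 CPM against 2.51 to 602 CPM. Its part in the Cox8b level was not tested. Against WT, which lacked such libraries, mock Cox8b had 2.03 (SE 0.69, edgeR adjusted p = 0.119).

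Against untreated YG8JR, the transplanted groups showed 0 called members in edgeR, DESeq2 and voom, and 0 members at an unadjusted p under 0.05 in edgeR. For mPPL-001 against untreated YG8JR, edgeR called 0.032% of all genes, DESeq2 0.0882% and voom 0.104%, and 3.35% had an unadjusted p under 0.05 in edgeR. There the member median was -0.10 against 0.07 over all genes, and 40 of 47 values were negative. Members with the smallest p were Atp5l, 0.37 (SE 0.25, edgeR adjusted p = 0.966), Atp5j, -0.21 (SE 0.15, edgeR adjusted p = 0.966), and the testis isoform Cox7b2, 0.79 (SE 0.63, edgeR adjusted p = 0.966). The median was -0.26 within batch A and 0.10 within batch B, a difference that was not tested. For mock against untreated YG8JR, edgeR called 0.036% of all genes, DESeq2 0.0602% and voom 0.04%, and 1.56% had an unadjusted p under 0.05 in edgeR. There the median was 0.05 and 35 values were positive. The smallest p were those of Cox8b, 1.07 (SE 0.65, edgeR adjusted p = 1), Cox6b2, 0.66 (SE 0.52, edgeR adjusted p = 1), and Atp5l, 0.22 (SE 0.26, edgeR adjusted p = 1). No member separated the groups in either comparison. The share of all genes that did was not counted, so this too is not a result about the members. Both comparisons share the untreated libraries. Core subunits had small fold changes: Sdha had -0.06 and -0.03, Uqcrc1 0.03 and 0.16, Cox4i1 -0.07 and 0.13, and Atp5a1 -0.11 and 0.02 after mPPL-001 and mock transplant respectively.

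Batch B against batch A was the comparison with the most called genes, 32.9% of all tested, yet 3 of 47 members were called by edgeR (2 higher, 1 lower). Most fold changes were small: the median was 0.04, and -0.02 with RLE scaling, and 40 members differed by less than 0.25 on the log2 scale. Cox6b2, a complex IV isoform best known from testis, was higher in batch B. It was 2.24, 0.905 and 1.41 CPM in WT, 3.14, 1.53 and 0.791 CPM in untreated YG8JR, 4.38, 0.644, 2.96 and 5.40 CPM after mock transplant and 0.836, 3.35, 1.92, 1.24 and 5.18 CPM after mPPL-001. The log2 fold change was 1.27 (SE 0.35, edgeR adjusted p = 0.0114), and all 24 alternative settings called it. Batch B libraries were WT replicates 1 and 2, untreated YG8JR replicate 1, mock replicates 1 and 4 and mPPL-001 replicates 2 and 5, and all but WT replicate 2 exceeded every batch A library of their own group.

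Cox7a1, the heart and muscle isoform, was 3.15, 3.07 and 1.57 CPM in WT, 2.81, 2.65 and 1.20 CPM in untreated YG8JR, 3.86, 1.22, 2.25 and 3.23 CPM after mock transplant and 1.84, 2.34, 1.98, 0.860 and 2.35 CPM after mPPL-001. In each group the batch B libraries were above the batch A libraries. The log2 fold change was 0.78 (SE 0.25, edgeR adjusted p = 0.0253), and the call was lost when any 1 of these was left out: WT replicate 1, the library labelled WT replicate 3, mPPL-001 replicates 2 and 4 and mock replicates 1 and 2 (edgeR adjusted p from 0.0502 to 0.0812). Among other settings, it was also lost with a covariate for Y-linked transcripts, with no filter on low counts, and with WT replicate 1 as the sole WT library (edgeR adjusted p from 0.0542 to 0.0777). Cox7a2l was lower in batch B and was 63.0, 31.8 and 86.9 CPM in WT, 62.8, 97.3 and 89.2 CPM in untreated YG8JR, 56.7, 90.1, 102 and 84.7 CPM after mock transplant and 76.7, 69.8, 80.8, 66.0 and 63.7 CPM after mPPL-001. In mPPL-001 the batches overlapped. The log2 fold change was -0.45 (SE 0.15, edgeR adjusted p = 0.0293), and the call was lost when the library labelled WT replicate 3, untreated YG8JR replicate 1 or 2, or mock replicate 1 was left out (edgeR adjusted p from 0.0519 to 0.123), and with the same covariate (edgeR adjusted p = 0.105). With the replicate number as a block in the model, neither Cox7a1 nor Cox7a2l was called (edgeR adjusted p = 0.173 and 0.295). Granule neuron transcripts moved with batch, as Gabra6 shows above, and so did the summed striated muscle marker list. Of its 21 genes 15 passed the filter, and they summed to 114 to 299 CPM in batch A and 339 to 703 CPM in batch B. Pvalb, which cerebellar neurons also express, made up much of this, 66.1 to 232 CPM in batch A and 158 to 627 CPM in batch B. Of the muscle genes proper, Acta1 lay between 0.465 and 1.88 CPM in batch A libraries, and between 0.448 and 2.16 CPM in those of batch B. Ckm reached 0.627 CPM in the first and 0.471 CPM in the second. Of 8 male germ cell markers only Prm1 passed the filter, with a highest level of 0.585 CPM among batch A libraries and 0.229 CPM among those of batch B. The part of cell makeup in these 3 differences was not tested.

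**Figure D4:**
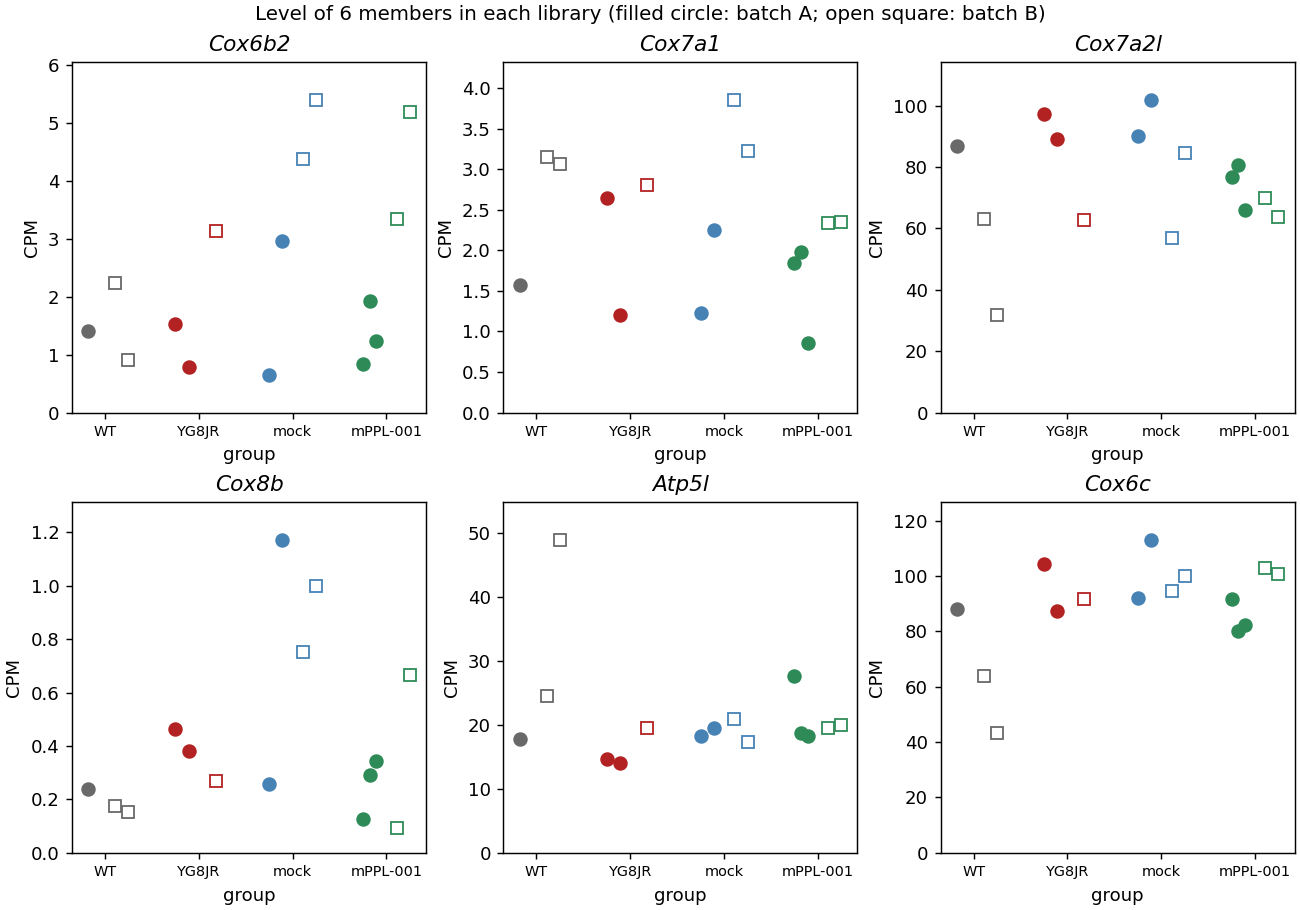
Level in CPM (linear axis from 0) of 6 members in every library, by group; filled circles are batch A and open squares batch B. Cox6b2 and Cox7a1 are higher in batch B, Cox8b is highest in 3 mock libraries and mPPL-001 replicate 5, Atp5l is highest in WT replicate 2 (48.9 CPM) and Cox6c is lowest in WT replicates 2 and 1.

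Other genes of the pathway are given by their lists. In untreated YG8JR against WT, 29 of 30 nuclear complex I genes were positive (median 0.42), as were 28 of 37 tested assembly factors of complexes II to V (median 0.22), all 17 citric acid cycle genes (median 0.40) and 83 of 86 cytosolic ribosomal protein genes (median 0.29). None of these lists had a called gene with all libraries. Without WT replicate 2 the medians were 0.22 for complex I, 0.15 for assembly factors, 0.27 for the citric acid cycle and 0.14 for ribosomal proteins, again with 0 called. When the library labelled WT replicate 3 was left out they were 0.62, 0.30, 0.67 and 0.47. In that setting 5 complex I genes, 4 assembly factors, 5 citric acid cycle genes and 1 ribosomal protein gene were called higher and 1 assembly factor lower, beside the 15.8% of all genes given above. The 6 mitochondrially encoded genes of complexes III to V had a median of 1.00 in that comparison and 1.01 in mock against WT, with 0 called in each. In mPPL-001 against WT the median was 1.24 with 2 called higher, beside 0.232% of all genes called. Without WT replicate 2 these medians were 0.92, 0.91 and 1.11 with 0 called in each. Without the library labelled WT replicate 3 they were 0.99, 1.03 and 1.23, with 2, 4 and 4 genes called higher. That setting called 15.8%, 18.6% and 6.93% of all genes in the same order. Levels in this list differed widely: mt-Atp6 was 21.2 to 79.9 CPM and mt-Co1 6460 to 23061 CPM over the libraries. How reads with several matches were handled is not known, so these medians are uncertain. Regulators of mitochondrial biogenesis, 16 genes, had a median of -0.02 in untreated YG8JR against WT. In mPPL-001 against mock the mitochondrially encoded list had a median of 0.23 and the members -0.13, with 0 called in either. The members' sign was not particular to them. Medians there were -0.15 for nuclear complex I, -0.13 for the citric acid cycle, -0.09 for cytosolic ribosomal proteins and -0.06 for assembly factors, with 0 called.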

How the data were processed

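RNA of cerebellum was sequenced as stranded, ribosome-depleted, paired-end libraries, per the labels' protocols. The authors deposited whole-number counts of reads per gene, 1 column per library, not normalized. Per the submitters' processing notes, STAR and the genome build GRCm39 were used; which program counted reads, on which annotation, and how it treated strand and multiple matches is not given in the sources used here. Counts of overlapping, antisense or near-identical genes may be split or merged. Symbols, exon lengths and word sharing came from GENCODE M21 (GRCm38), matched by identifier for 55141 of 55488 rows (99.4%), and no coordinates of that build are given for the counts.

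Groups and batches came from the labels. No library was a copy of another (smallest chi-square per gene between libraries of a group 23.2). Every comparison used 1 edgeR 4.0.16 quasi-likelihood model (R 4.3.3, limma 3.58.1) with group means and a batch term on all 15 libraries, TMM scaling and the edgeR filter (minimum count 10, minimum total 15). P-values were adjusted over all genes tested by the Benjamini-Hochberg method, with a threshold of 0.05. The biological coefficient of variation was 0.332. Log2 CPM used a prior count of 0.5. Standard errors are those of log2 fold changes. The code was tested on simulated data. Precision is limited by 3 to 5 libraries a group.

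The members, lists and tests were chosen with earlier results of these data known. Named were core subunits, isoforms and gene copies, called members (up to 8), and the 3 members with the smallest p where none was called. Cox6b1, the 7 low-level members as a set and the gene names listed for non-overlapping groups were chosen after their values were seen. Alternatives were RLE, no and stricter filters, DESeq2 1.42.0, voom with sample weights, no batch term, a replicate block, only the groups compared, each batch alone, library sizes without mitochondrially encoded genes, a covariate for Y-linked transcripts and each library left out; WT replicate 1 alone as wild type was added after seeing the data. Some genes' results are not reported here.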

Additional observations from a re-analysis of the deposited data

Results flagged for a closer look

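In groups of 4 or 5 libraries, the highest and lowest library of each named member were set against the gap that chance would rarely give, in 56 groups of 28 members. Chance sets off this test in about 1 in 20 groups, and here 1 did. Atp5l in mPPL-001 replicate 1 was 27.6 CPM, the highest of its group, with the other 4 mPPL-001 libraries at 18.2 to 20.02 CPM. In the same library nuclear long noncoding RNAs had their highest median deviation, 0.94 on the log2 scale. WT replicate 2, in a group too small for this test, also had a high Atp5l level, 48.9 CPM, and a median deviation of 0.59 for that list. Whether the 2 levels are linked was not tested.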

How the results depend on the processing

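Over 24 to 28 alternatives a comparison, members called stayed at 0 for mock against untreated YG8JR, mPPL-001 against untreated YG8JR and mPPL-001 against mock. Leaving out 1 library at a time, 0 to 6 members were called in untreated YG8JR against WT, 0 to 1 in mPPL-001 against WT, 0 to 12 in mock against WT and 1 to 4 in batch B against batch A; the highest counts with WT came without the library labelled WT replicate 3. DESeq2 and voom each called 1 member in mock against WT, and voom called 6 in batch B against batch A. The cause of these shifts was not tested. Member medians ranged over all alternatives from 0.15 to 0.71 in untreated YG8JR against WT, 0.19 to 0.73 in mock against WT, -0.07 to 0.71 in mPPL-001 against WT, -0.30 to 0.03 in mPPL-001 against mock, -0.26 to 0.10 (within batch B) in mPPL-001 against untreated YG8JR and -0.06 to 0.13 in mock against untreated YG8JR. With the replicate number as a replicate block, 0 members were called in the group comparisons and 1 in batch B against batch A. There Cox7a1 (edgeR adjusted p = 0.173) and Cox7a2l (edgeR adjusted p = 0.295) lost their calls. Same-numbered libraries correlated at a mean of -0.0853 over 19 pairs, 6 of them over 0.1. Libraries of different number had a mean of 0.0259 over 64 pairs, 32 of them over 0.1, with a range of -0.71 to 0.675. This gave no sign of pairing by number, but with so wide a range it cannot exclude it. Among named members 6 values changed sign: Uqcrc1 to -0.13 in untreated YG8JR against WT, Cox6c to -0.0652 and Cox6a1 to -0.0367 in mPPL-001 against WT, all within batch A; Atp5l to -0.0452 in mock against untreated YG8JR, and Atp5j to 0.0010 and Cox7b2 to -0.0660 in mPPL-001 against untreated YG8JR, all within batch B. Calls over all genes ranged from 0 to 4096 in untreated YG8JR against WT (36 in the fit reported), 5 to 4839 in mock against WT (103), 9 to 1800 in mPPL-001 against WT (58), 0 to 26 in mPPL-001 against untreated YG8JR (8), 5 to 15 in mock against untreated YG8JR (9), 0 to 5 in mPPL-001 against mock (0) and 5136 to 10060 between batches (8223). Depth limits the 7 low-level members, with at most 189 counts in a library.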
